A study of Sus scrofa with 36 samples.

Results

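ADPRH and ZSCAN29 are 2 of the 10506 genes with a kept probe on the liver arrays of a study of heat in growing pigs, and they were chosen by their measured values, since the signal of both was higher after heat in each of 3 breeds. ADPRH is represented by 7 array probes and ZSCAN29 by 1 probe, and each of them was well above background, by the flag of the scanner software, on at least 6 of the 36 arrays, which was the condition for keeping a probe. The lowest count was 31 arrays, so none lay close to that limit and no probe named for either gene was lost to it. The choice of both genes used the difference between heat and thermoneutral animals itself, and that difference is therefore described here with no test.

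The livers came from 36 castrated male pigs, 12 each of the Large White (LW), Creole (CR) and Large White × Creole (F1) breeds. In each breed 6 animals were killed at 24 °C (thermoneutral, TN) and 6 after heat stress (HS), which gave 6 groups of 6. The sample labels give 30 °C for the heated animals whereas the growth protocol gives 32 °C held for 5 days. By the study's methods some HS animals were killed before the full 5 days of heat. All TN animals were killed before the temperature was raised and all HS animals after it. The study also reports that the challenged pigs ate less under heat than before it, and each pen was slaughtered at a single temperature. Day of slaughter, age, pen, feed intake and temperature therefore cannot be told apart. According to the study's methods, littermates were spread over pens and animals of a breed shared litters. The labels do not give parentage or pen, so these were not modelled.

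ADPRH encodes ADP-ribosylarginine hydrolase, a cytosolic enzyme that removes ADP-ribose from arginine residues of proteins and so reverses the mark that arginine ADP-ribosyltransferases place with NAD as the donor. Other hydrolases remove ADP-ribose from serine or break down poly(ADP-ribose) chains. ZSCAN29 encodes a zinc finger protein with a SCAN domain, a segment through which members of this vertebrate family of DNA-binding proteins pair with each other, and little is known of its function in liver.

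By RefSeq (Sscrofa11.1), ADPRH lies on chromosome 13 from 140638526 to 140681631 and its span overlaps that of PLA1A, a phospholipase gene, by 27539 bases. ZSCAN29 lies on chromosome 1 from 128084065 to 128097517, overlaps ADAL, an adenosine deaminase-like gene, by 8096 bases and begins 25 bases after the end of TUBGCP4, which encodes a protein of the gamma-tubulin complex. The array probes are 60 bases long. The files place the ADPRH probes by their start in a transcript, at 375, 1736 and 2158 in one transcript and at 3557, 3717 and 3718 in a longer predicted one. No start is given for the probes O4255 and O14834. The ZSCAN29 probe, O14834, is tied to that gene by the gene name in the files, and its transcript accession is not among those that RefSeq lists for pig.

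The stretches below, 30 bases of each probe written 5′ to 3′, are shown because what each gene's signal means depends on them. The first belongs to the brightest ADPRH probe, which represents the gene in the comparisons. The second belongs to both A_72_P228887 and O4255, whose 60 bases are identical although they are printed as different probes. A_72_P594099 and A_72_P219922 overlap after a shift of 1 base, and an alignment of the 60 bases with a gap of 1 base matches at 57. Capitals mark the bases that this alignment leaves without a match, so letters past the gap do not stand under each other. The last lines give the ZSCAN29 probe and a probe with no gene name that is described further on.
ADPRH A_72_P042386, bases 1 to 30: ggtaaatatgcagagggaattccttttggc
ADPRH A_72_P228887 and O4255, bases 1 to 30: tgagtaaataggctttagagatagcctcac
ADPRH A_72_P594099, bases 16 to 45: tgtgcagttccagtgtggcaCggtGggtta
ADPRH A_72_P219922, bases 15 to 44: tgtgcagttccagtgtggcaGggtggttaa
ZSCAN29 O14834, bases 1 to 30: caaggcattttaagaatgaaaggaagattt
Unnamed A_72_P278669, bases 1 to 30: tccctttctgtaaagcagaaaaatgtttac
Apart from the identical and the overlapping pair, none of these probes shared a run of 20 bases with another probe of the array. The 7 ADPRH probes thus stand for 5 distinct places in the transcript, and they are not independent replicates.

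All values are log2 of the median pixel intensity after quantile normalization over the 36 arrays, and a difference of 1 is a doubling of signal. Levels of different probes are not comparable with each other. From 39644 to 44025 non-control spots per array passed as well above background, none was saturated, and the arrays were spread over 5 slides that each held both conditions. Of 10 hepatocyte markers 9 had a kept probe, and all 9 were well above background on all arrays. In no marker list of hepatocytes, Kupffer cells, lymphocytes, stellate cells, endothelial cells, bile duct cells or red blood cell precursors was a gene called between HS and TN (limma, adjusted p). Over all genes 1.41% were called, so this absence says nothing particular about the lists. The summed signals of every list overlapped between the conditions. Of the lists, the endothelial one (6 of 7 genes measured) ranged from 20153 to 35943 intensity units with a median of 25895 in TN, and from 18732 to 37933 with a median of 32911 in HS. The Kupffer cell list ranged from 41769 to 83613 units in TN and from 35353 to 77635 in HS. Their part in the differences of ADPRH and ZSCAN29 was not tested. In bulk liver, fewer cells of a type and less RNA per cell cannot be told apart.

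ADPRH was brighter in heated animals of each breed. At its representative probe A_72_P042386 the LW TN animals lay between 10.11 and 10.44 with a median of 10.18, and the LW HS animals between 10.47 and 10.83 with a median of 10.69. The 2 LW groups did not overlap. The CR TN animals ranged from 9.92 to 10.36 with a median of 10.24, and the CR HS animals from 10.43 to 10.84 with a median of 10.64. These groups did not overlap either, and the lowest CR TN animal stood well below the other animals of its group. The F1 TN animals lay between 10.18 and 10.38 with a median of 10.25, and the F1 HS animals between 10.35 and 11.22 with a median of 10.60. In F1 the 2 groups met at their edges, since 4 of the 6 HS animals were above every TN animal, and the highest HS animal gave this group the widest spread of all. Among kept probes, 0.185% in LW, 0.152% in CR and 0.139% in F1 had all 6 HS animals above all 6 TN animals. Because the genes were chosen for this pattern, nothing is read from that comparison.

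Group means ± SD at this probe were 10.23 ± 0.13 in LW TN and 10.67 ± 0.12 in LW HS, 10.22 ± 0.15 in CR TN and 10.64 ± 0.17 in CR HS, and 10.27 ± 0.094 in F1 TN and 10.66 ± 0.33 in F1 HS (n = 6 each). HS minus TN over the breeds was 0.42 (SE 0.059), equal to 1.33-fold. By breed, LW animals differed by 0.44, CR by 0.42 and F1 by 0.39, each with a SE of 0.11. The SE comes from a spread shared by the 6 groups, although F1 HS was the widest. Without its highest animal, F1 HS replicate 4, the F1 difference was 0.27. All 18 HS animals were above the mean of the TN animals of their own breed, a property of 0.119% of the kept probes. Taken within each of the 5 slides after subtraction of breed means, the difference was between 0.34 and 0.51. The choice of the gene favoured both properties, so nothing is read from that share or from the values by slide.

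ZSCAN29 gave a difference of similar size on a much dimmer spot. The LW TN animals lay between 6.48 and 6.94 with a median of 6.69, and the LW HS animals between 6.80 and 7.19 with a median of 7.09. In this breed the groups overlapped, with 4 of 6 HS animals above every TN animal. The CR TN animals ranged from 6.40 to 6.77 with a median of 6.50, and the CR HS animals from 6.82 to 7.08 with a median of 6.94. The F1 TN animals lay between 6.23 and 6.74 with a median of 6.64, and the F1 HS animals between 6.86 and 7.27 with a median of 6.96. In CR and F1 the groups did not overlap. At these 2 probes the breed in which the conditions overlapped was thus F1 for ADPRH and LW for ZSCAN29. Over all 7 ADPRH probes the conditions overlapped at 5 probes in LW, 5 in CR and 7 in F1.

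Group means ± SD of ZSCAN29 were 6.69 ± 0.17 and 7.03 ± 0.17 in LW TN and HS, 6.56 ± 0.17 and 6.94 ± 0.10 in CR TN and HS, and 6.58 ± 0.19 and 7.003 ± 0.16 in F1 TN and HS (n = 6 each). HS minus TN was 0.38 (SE 0.054), equal to 1.30-fold, and all 18 HS animals were above the TN mean of their breed. By breed, LW animals differed by 0.34, CR by 0.38 and F1 by 0.42, each with a SE of 0.096. Within the 5 slides it was between 0.30 and 0.48. As for ADPRH, the gene was chosen for this difference, so these values are a description.

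**Figure D1:**
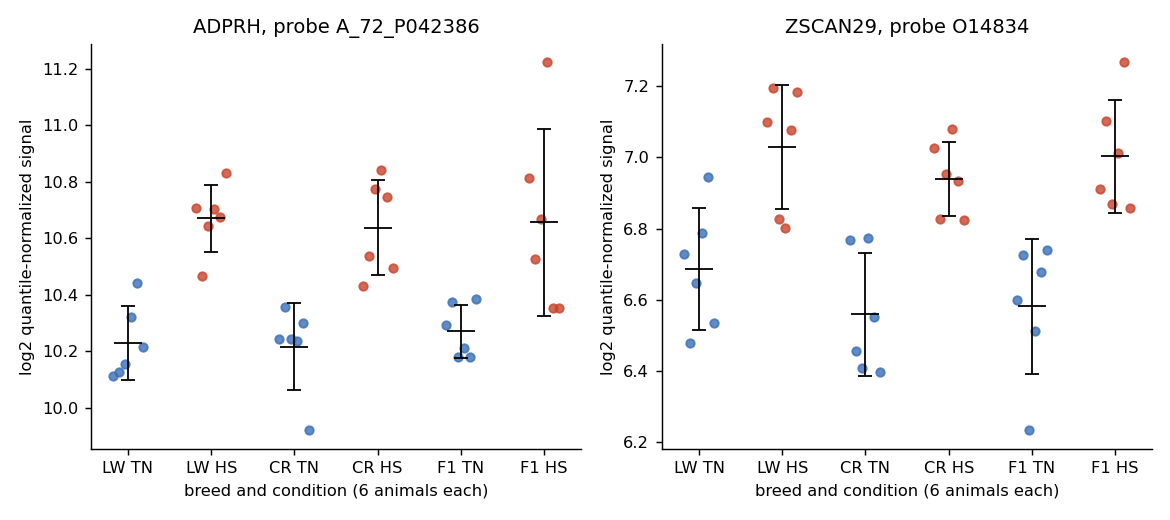
Log2 quantile-normalized signal of each animal at the representative ADPRH probe (left) and the ZSCAN29 probe (right), by breed and condition, with 6 animals a group; blue points are TN, red points HS, and black bars the mean ± SD. The HS points of ADPRH lie above all TN points in LW and CR, and those of ZSCAN29 in CR and F1.

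The other ADPRH probes were also higher in HS, by unequal amounts. A_72_P594099 differed by 0.41 (SE 0.055) with 18 of 18 HS animals above their breed's TN mean, and in CR its HS animals, the lowest at 10.25, were all above the TN animals, the highest at 10.19. A_72_P511874 had the largest difference of the 7, 0.48 (SE 0.091), and also the widest spread, with 17 of 18 HS animals above the TN mean. A_72_P219922, which overlaps A_72_P594099 in sequence, differed by 0.32 (SE 0.054) in 18 of 18 animals. Its value in LW was 0.21 against 0.41 in CR and 0.34 in F1 (SE 0.093 each). A_72_P486880 differed by 0.30 (SE 0.070) in 15 of 18 animals, with 0.43 in LW, 0.20 in CR and 0.27 in F1 (SE 0.12 each). A_72_P511874 gave 0.41 in LW, 0.65 in CR and 0.39 in F1 (SE 0.16 each), while A_72_P594099 lay between 0.40 and 0.42 in all 3. Which breed differed most thus depended on the probe, and differences between breeds in HS minus TN were not tested. The 2 identical probes were dim, with TN means of 5.45 for A_72_P228887 and 5.58 for O4255, and their differences were the smallest of the 7, at 0.15 (SE 0.044) and 0.19 (SE 0.058), with 16 of 18 HS animals above the TN mean at each. On the scanner's processed signal, which has the local background removed, these 2 values became 0.37 and 0.45 and the representative probe's stayed at 0.40. With normexp background correction of the mean signal they became 0.069 and 0.11, so the size of the difference at the dim pair moved by more than 1.5 times in either direction with the treatment of background.

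The identical pair shows how far 2 spots of the same sequence can part on the same array near background. Their signals correlated at r = 0.14 over the 36 arrays and at r = −0.11 once the 6 group means were subtracted. O4255 was 0.16 above A_72_P228887 on average, with a SD of 0.23 between arrays. The largest gap was 1.00, in F1 TN replicate 4, where O4255 read 6.33 and A_72_P228887 read 5.33.

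**Figure D2:**
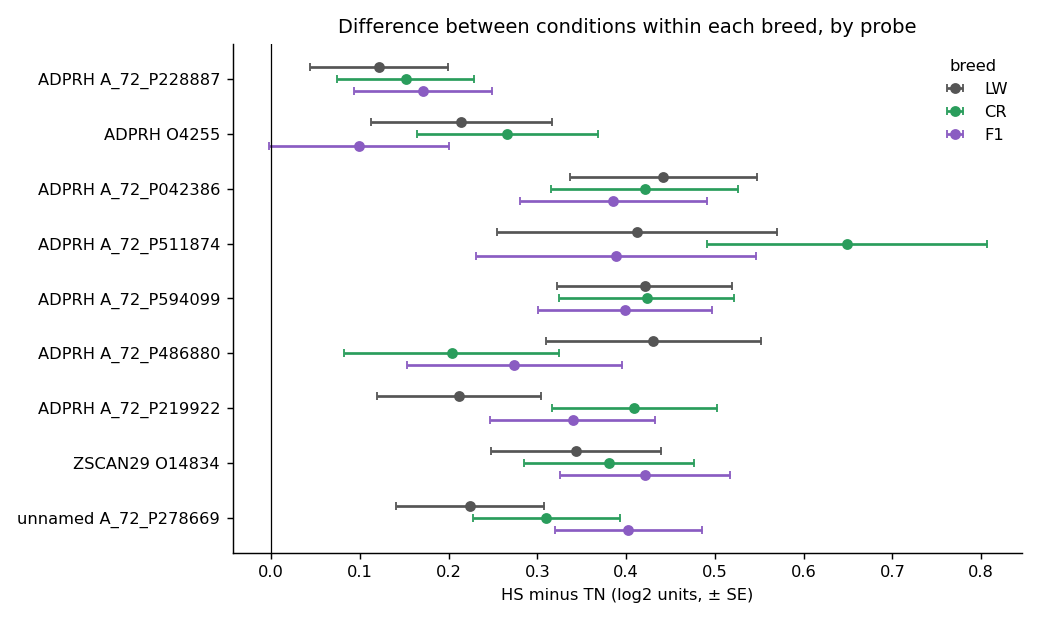
HS minus TN in log2 units for each probe within LW (grey), CR (green) and F1 (purple), with bars of 1 SE from the fit of the 6 groups. Every point lies right of 0, the lowest being O4255 in F1 and A_72_P228887 in LW, and the representative ADPRH probe and the ZSCAN29 probe show close values in the 3 breeds. At A_72_P486880 LW lies highest of the breeds, and at A_72_P219922 it lies lowest.

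The choice of the genes used the heat difference in each breed but not the difference between breeds, which was tested with limma over 44796 probes, with p-values adjusted over all of them. The test took animals as independent, although those of a breed shared litters and pens. Between CR and LW 26.5% of the probes were called, between F1 and LW 18.3%, between F1 and CR 1.5%, and between F1 and the mean of the parental breeds 1.13%. Neither representative probe was called in any of these 4 comparisons. For ADPRH, CR minus LW was −0.02 (95% interval −0.17 to 0.13, adjusted p = 0.86), F1 minus LW was 0.01 (−0.13 to 0.16, adjusted p = 0.92), F1 minus CR was 0.04 (−0.11 to 0.18, adjusted p = 0.92) and F1 minus mid-parent was 0.02 (−0.10 to 0.15, adjusted p = 0.89). For ZSCAN29, CR minus LW was −0.11 (−0.24 to 0.03, adjusted p = 0.23), F1 minus LW was −0.07 (−0.20 to 0.07, adjusted p = 0.54), F1 minus CR was 0.04 (−0.09 to 0.18, adjusted p = 0.89) and F1 minus mid-parent was −0.01 (−0.13 to 0.10, adjusted p = 0.94).

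The ADPRH probes did not give 1 answer on breed. The overlapping pair was higher in CR than in LW, A_72_P594099 by 0.24 (95% interval 0.10 to 0.37, limma adjusted p = 0.0083) and A_72_P219922 by 0.22 (0.086 to 0.35, adjusted p = 0.0125). A_72_P486880 was lower in CR, with a difference of −0.28 (−0.46 to −0.11, adjusted p = 0.0126). The LW animals at A_72_P486880 lay between 6.28 and 7.08 with a median of 6.80, and the CR animals between 6.14 and 6.76 with a median of 6.46 (n = 12 each). The breeds overlapped, and the highest CR animal was below the LW median. At the other 4 probes CR minus LW was not called and lay between −0.09 and 0.07. The direction of a breed difference in ADPRH therefore depended on the probe. HS minus TN was positive at all 7 probes, but the gene was chosen for a higher signal after heat. The choice favoured that shared sign, so it is not weighed against the breed differences. All 3 breed calls were lost when the arrays of slide 3 were left out, with adjusted p = 0.097 for A_72_P594099, 0.16 for A_72_P219922 and 0.14 for A_72_P486880. No ADPRH probe was called for F1 minus LW, F1 minus CR or F1 minus mid-parent, and the smallest adjusted p among these was 0.052, for F1 minus CR at A_72_P219922 with a difference of −0.24.

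**Figure D3:**
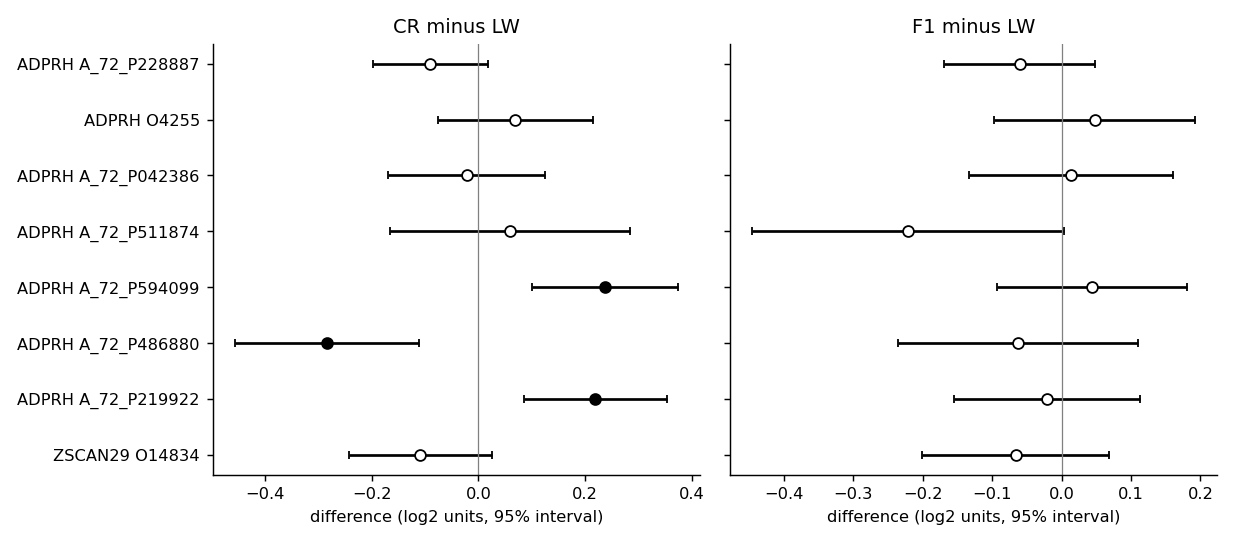
Differences of CR minus LW (left) and F1 minus LW (right) in log2 units for each ADPRH and ZSCAN29 probe, with 95% intervals; filled points passed an adjusted p of 0.05 and open points did not. Of the 3 filled points, all for CR minus LW, 2 lie above 0 and 1 below.

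Across animals of one condition, the signals of the 2 genes were compared after subtraction of breed means, so that the shift between conditions could not enter. Among the 18 TN animals the representative probes gave r = 0.54 and rho = 0.54 (2-sided permutation within breed, p = 0.025 for r and 0.030 for rho). Adjusted over the 2 conditions the p for r was 0.051, and r was 0.40 without the 2 animals farthest from the median of ADPRH. Among the 18 HS animals r was −0.05 and rho 0.01 (2-sided permutation within breed, p = 0.85 and 0.97, adjusted p for r 0.85), and r was −0.23 without the 2 farthest animals. Neither relation passed the adjusted threshold, and the difference between the conditions was not tested. When slide means were removed as well, r in TN was 0.22. Littermates are among these animals, and the p-values take them as independent.

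The genes around each member were compared as a gauge of the region. The 10 measured genes on each side of ADPRH numbered 20, of which none was called between HS and TN by limma and 5 had an unadjusted p under 0.05, beside 1.41% of all 10506 genes called and 18.4% with an unadjusted p under 0.05 at any probe. Overlapping PLA1A had differences of 0.10 to 0.17 at its 3 probes, the smallest adjusted p being 0.24. Over the 36 arrays these probes correlated with the representative ADPRH probe at r = 0.33 to 0.43, and within groups at 0.28 to 0.33. With the ADPRH probe A_72_P594099 r was 0.08 to 0.16 over the arrays, and with the ZSCAN29 probe, on another chromosome, 0.31 to 0.47. Where a gene of a list has several probes, the values given are those of its probe with the smallest p. The smallest p-values belonged to COX17, a copper chaperone of cytochrome c oxidase, with −0.18 (SE 0.048, adjusted p = 0.064), NR1I2, the pregnane X receptor, with 0.20 (SE 0.054, adjusted p = 0.068) and 0.14 at its representative probe, and ATP6V1A, a subunit of the vacuolar proton pump, with −0.17 (SE 0.053, adjusted p = 0.11). At COX17 all 4 probes were between −0.18 and −0.16. The median of the 20 representative differences was −0.05, beside 0.00 over all kept probes.

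Of the 20 neighbours of ZSCAN29, 1 was called by limma and 5 had an unadjusted p under 0.05, beside 1.41% and 18.4% of all genes. SERF2, a small protein gene, was higher in HS at 1 of its 2 probes, with 8.67 ± 0.13 in TN and 8.87 ± 0.17 in HS (SD, n = 18 each), a difference of 0.20 (SE 0.050, adjusted p = 0.049). Its other probe differed by 0.00 (adjusted p = 1.00). This call stood at the edge of the threshold and was lost in 27 of the 36 fits that each left out 1 array. Adjacent to SERF2, SERINC4 gave 0.25 (SE 0.065, adjusted p = 0.057), EPB42, an erythrocyte membrane protein gene, gave −0.19 (SE 0.054, adjusted p = 0.079) and −0.26 at its representative probe, and LCMT2 gave 0.14 (SE 0.046, adjusted p = 0.13). TUBGCP4, which ends next to ZSCAN29, differed by 0.00 and 0.01 at its 2 probes. ADAL, which overlaps ZSCAN29, differed by 0.00 and −0.10 at the 2 probes named for it (adjusted p = 0.99 and 0.47).

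**Figure D4:**
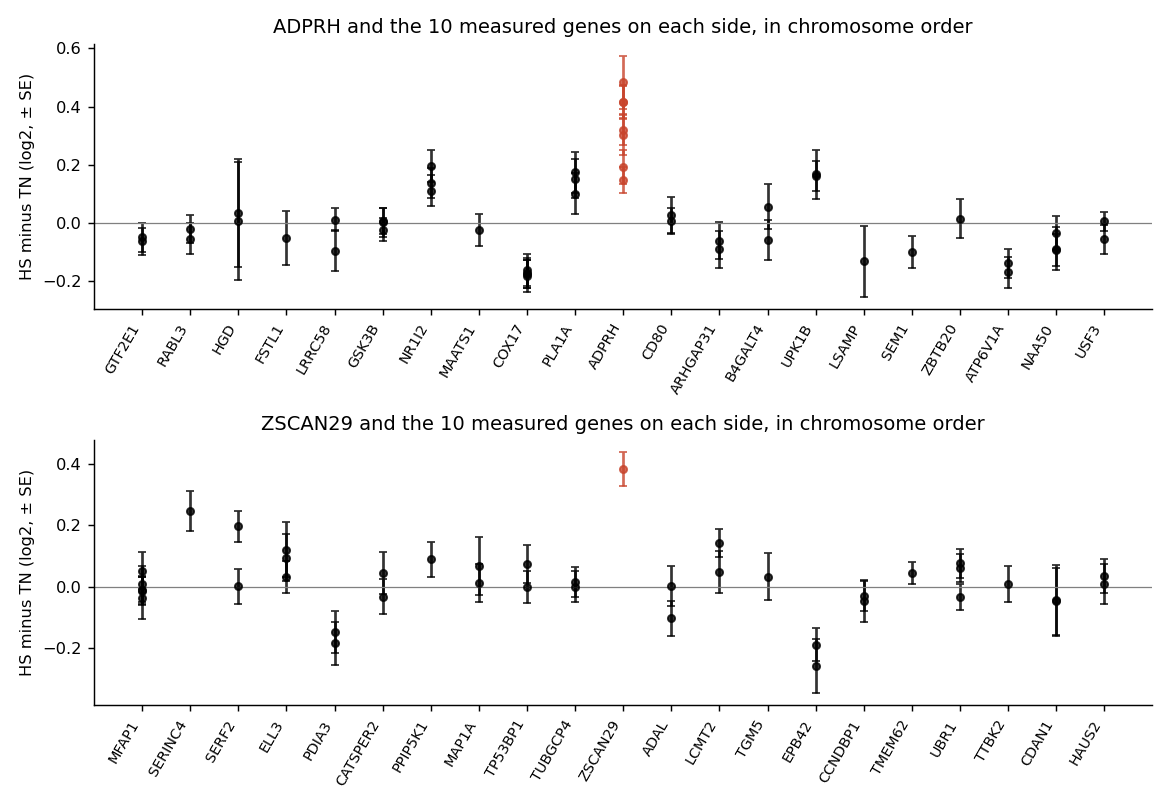
HS minus TN in log2 units (bars of 1 SE) for every kept probe of ADPRH (top) and ZSCAN29 (bottom), in red, and of the 10 measured genes on each side in chromosome order, in black. The ADPRH probes run from 0.15 to 0.48 and the ZSCAN29 probe stands at 0.38, while the neighbours lie between about −0.26 and 0.25.

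A probe without a gene name followed ZSCAN29 more closely than any named gene did, and it was picked out after its values had been seen. A_72_P278669 carries the name of an assembled transcript in the files, and the study's probe annotation assigns it to the adenosine deaminase-like gene that overlaps ZSCAN29. Its r with the ZSCAN29 probe over the 36 arrays was 0.84, the highest of 44722 probes, and r was 0.60 after subtraction of the group means, the rank of its size then being 30. Its TN animals lay between 7.36 and 8.03 with a median of 7.82 and its HS animals between 7.93 and 8.29 with a median of 8.10 (n = 18 each). HS minus TN was 0.31 (SE 0.048), and all 18 HS animals were above the TN mean of their breed. Since the probe was picked for a correlation that includes the shift between conditions, this difference is described with no test. The 2 probes that the files name ADAL correlated with it at −0.15 and −0.37 over the 36 arrays, and with ZSCAN29 at −0.08 and −0.23. Which transcript this probe reports was not tested, and the same holds for the ZSCAN29 probe.

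**Figure D5:**
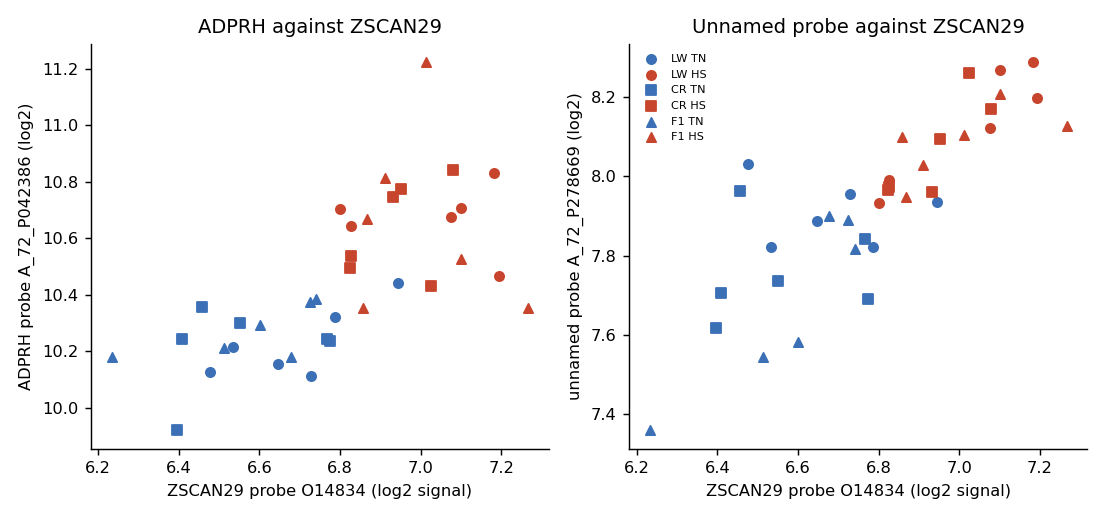
Log2 signal of the representative ADPRH probe (left) and of the unnamed probe A_72_P278669 (right) against the ZSCAN29 probe, 1 point per animal, TN blue and HS red, with circles for LW, squares for CR and triangles for F1. Over the 36 animals r is 0.67 on the left and 0.84 on the right, and after subtraction of the 6 group means it is 0.18 and 0.60.

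Other genes of ADP-ribosylation were compared from a list of 34 transferases, hydrolases that remove ADP-ribose, and enzymes that cleave free ADP-ribose or NAD. Of these, 26 had a kept probe, 0 were called between HS and TN by limma and 1 had an unadjusted p under 0.05, beside 1.41% and 18.4% of all genes. At such a background a count of 0 says nothing particular about the list. The gene with the unadjusted p under 0.05 was TIPARP, a mono-ADP-ribosyltransferase, at 5.66 ± 0.17 in TN and 5.49 ± 0.13 in HS (SD, n = 18 each), a difference of −0.17 (SE 0.051, adjusted p = 0.11) at the probe of smallest p, while its representative probe differed by −0.05. PARP2, a DNA damage-dependent polymerase of ADP-ribose, differed by 0.14 (SE 0.069, adjusted p = 0.39), and ART4, of the family of cell surface arginine transferases, by −0.10 (SE 0.050, adjusted p = 0.40) at the probe of smallest p and −0.08 at its representative. The 26 representative differences ran from −0.10 to 0.15 with a median of 0.02.

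Among 17 genes of the synthesis of NAD, the donor of ADP-ribose, and of nicotinamide use, 13 had a kept probe. By limma 0 were called and 4 had an unadjusted p under 0.05, beside 1.41% and 18.4% of all genes. NADK2, the mitochondrial NAD kinase, was at 12.80 ± 0.50 in TN and 13.20 ± 0.27 in HS, a difference of 0.40 (SE 0.13, adjusted p = 0.13). KMO, an enzyme of the route from tryptophan, differed by −0.40 (SE 0.14, adjusted p = 0.17). NNMT, which methylates nicotinamide, differed by −1.03 (SE 0.40, adjusted p = 0.22) at the probe of smallest p among its 3, where its SD of 1.61 among TN animals was larger than that difference, and by −0.31 at its representative probe. The standard errors of all 3 were larger than those of the member probes. The median of the 13 genes was −0.02.

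Of 53 other genes with a SCAN domain only 13 had a kept probe with that symbol. By limma 0 were called and 2 had an unadjusted p under 0.05, beside 1.41% and 18.4% of all genes. ZKSCAN1 differed by 0.20 (SE 0.091, adjusted p = 0.32), ZSCAN2 by 0.15 (SE 0.070, adjusted p = 0.35) and ZNF24 by −0.11 (SE 0.056, adjusted p = 0.39) at the probe of smaller p and −0.10 at its representative. The representative differences of these genes ran from −0.10 to 0.20 with a median of 0.00.

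The genes most like each member over the 36 arrays were sought among 10489 genes with no missing value, by Pearson's r between representative probes. These points share their slides and the shift between conditions, genes are not independent of each other, and r is given as a description. ADPRH was followed most closely by POLI, a DNA polymerase of translesion synthesis (r = 0.79), VTI1B, a vesicle fusion protein (0.68), ZSCAN29 (0.67), POMGNT1, an enzyme of O-mannose glycan synthesis (0.67), MPZL1 (0.65) and FZR1, an activator of the anaphase-promoting complex (0.64). At the other end stood the chaperones HSPH1 (−0.71) and HSPA8 (−0.71) and the mitochondrial ribosomal protein MRPS17 (−0.70). HS minus TN was −0.53 (SE 0.10) for HSPH1, −0.68 (SE 0.14) for HSPA8 and −0.22 (SE 0.051) for MRPS17. An r over both conditions includes the shift between them, so for these genes HS minus TN is likewise given with no test. Within groups the same r was −0.45 for HSPH1, −0.51 for HSPA8 and −0.46 for MRPS17, and 0.57 for POLI.

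ZSCAN29 was followed by THRA, the thyroid hormone receptor alpha (r = 0.71), POLI (0.70), CHMP4C, a membrane scission protein (0.69), IRF2BPL (0.68), DOK2, an adaptor of blood cell signalling (0.67), and ADPRH (0.67). COX7B, a subunit of cytochrome c oxidase (−0.73), LOC100516480 (−0.71) and ESR1, the estrogen receptor alpha (−0.68), ran the other way. HS minus TN was 0.40 (SE 0.085) for THRA and −0.33 (SE 0.063) for ESR1, again as a description. POLI, with 0.21 (SE 0.042), was in the list of both members.

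Once the 6 group means were subtracted the lists changed. For ADPRH the largest values were POMGNT1 (r = 0.70), RBM4, an RNA-binding protein (−0.68), EXOC7 of the exocyst (0.66), AMN1 (0.65) and UBE3B, a ubiquitin ligase (0.65). For ZSCAN29 they were KIN (0.67), NOVA1 (−0.67), STX5, a syntaxin of the Golgi (−0.64), STEAP3, a ferrireductase (0.63), and RFX6 (−0.63). None of these was called between HS and TN by limma, their adjusted p running from 0.21 for AMN1 to 0.97 for EXOC7. With 1.41% of all genes called, this says nothing particular about them. They are the extremes of a search over 10489 genes, whose median r in size was 0.15 with ADPRH and 0.13 with ZSCAN29. Whether their r exceeded what such a search gives by chance was not tested. The r between the representative probes of ADPRH and ZSCAN29 fell in size from 0.67 to 0.18 by this step, but it was 0.55 between ZSCAN29 and the ADPRH probe A_72_P594099, so that it too depended on the probe.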

How the data were processed

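Liver RNA from 36 pigs was hybridised to 1-colour Agilent arrays. The authors deposited unnormalized scanner output (Agilent Feature Extraction, version 10.10.1.1), of which the median pixel intensity per spot was used, and a table of log2 values that they had quantile-normalized. Each probe of that table was centred near a common value (column medians of 7.66), so it was used only as an alternative; its differences between arrays ran on the log2 scale (slope 0.95 against the scanner values). Here log2 median intensities were quantile-normalized. Of 60305 probes, 44796 were well above background on at least 6 arrays and were kept. Gene names came from the files or, through their accessions, from RefSeq (Sscrofa11.1). A gene is represented by whichever of its kept probes had the highest mean. A model with breed and condition was fitted with limma 3.58.1 in R 4.3.3, with Benjamini-Hochberg adjustment and a threshold of 0.05, after it had been tested on simulated data. The study's random effects (pen, slaughter day, parents) are not in the labels. Replicates are separate animals, but by the study's methods they include littermates and pen mates, and the model took them as independent. Standard errors and p-values may therefore be too small. Precision is limited by the number of litters and pens as well as of animals. The members, gene lists, neighbours and named genes (every called gene and the 3 smallest p-values of a list, and the 6 highest, 3 lowest and, within groups, 5 largest correlations) were chosen with earlier results of these data known.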

Additional observations from a re-analysis of the deposited data

Results flagged for a closer look

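In 48 checks of a group of 6 animals at a member probe, 4 had 1 animal whose distance to the next animal took up an unusually large share of the range of its group, where chance would give about 1 in 20 (2.4 of 48). CR TN replicate 6 was the lowest of its group at 2 ADPRH probes. It read 9.92 at A_72_P042386 with the next animal at 10.24 (0.724 of the range), and 7.31 at A_72_P511874 with the next animal at 8.19 (0.641 of the range). Without this animal HS minus TN at A_72_P042386 was 0.40 over the breeds and 0.36 within CR. F1 TN replicate 4 was the highest of its group at O4255 (0.747 of the range), and the spot of identical sequence did not share that value. LW TN replicate 6 was the lowest of its group at A_72_P228887, at 5.29 with the next animal at 5.49 (0.656 of the range).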

How the results depend on the processing

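HS minus TN of both representative probes stayed positive in every alternative run (other signal columns and normalizations, other filters, slide or array row as a block, array weights, another spread estimate, the authors' table, each array and each slide left out), from 0.38 to 0.44 for ADPRH and from 0.29 to 0.50 for ZSCAN29. Both genes were chosen for this difference and every alternative drew on the same animals, so the constant sign is no support for it. No alternative called a breed comparison of a representative probe, but differences near 0 changed sign. ADPRH CR minus LW became 0.029 without slide 5. ADPRH F1 minus LW became −0.048 with the processed signal, −0.016 with normexp correction, −0.044 with the authors' table, −0.020 with array weights, −0.026 without slide 1 and −0.066 without slide 3. ADPRH F1 minus CR became −0.012 without slide 3. ADPRH F1 minus mid-parent became −0.0044 with the processed signal, −0.0047 with the authors' table, −0.0051 with array weights, −0.011 without slide 1 and −0.039 without slide 3. ZSCAN29 F1 minus mid-parent became 0.014 with the authors' table, 0.012 with array weights and 0.020 without slide 4. With each array left out, ADPRH ran from −0.041 to 0.0059 for CR minus LW, from −0.038 to 0.044 for F1 minus LW, from −0.016 to 0.066 for F1 minus CR and from −0.027 to 0.055 for F1 minus mid-parent, and ZSCAN29 from −0.038 to 0.023 for F1 minus mid-parent. The 3 called CR minus LW differences of other ADPRH probes held with every single array left out and were lost without slide 3. Without condition in the model the overlapping pair lost its call as well (adjusted p = 0.098 for A_72_P594099 and 0.074 for A_72_P219922).

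The ADP-ribosylation, NAD and SCAN domain lists had 0 genes called in every alternative. The count among ADPRH neighbours was 1 with the processed signal (NR1I2) and 1 with slide as a block (COX17), and 0 to 1 with each array left out. Among ZSCAN29 neighbours it was 2 with the processed signal, normexp, the authors' table, the filter on all arrays or slide as a block (SERF2 and SERINC4) and with one value per gene (EPB42 and SERINC4). It was 0 with no filter, array row as a block, array weights, the trended spread, no breed term, or any slide left out, and 0 to 2 with each array left out. In TN, r between the members was 0.56 (adjusted p = 0.045) with the processed signal and 0.66 (adjusted p = 0.012) with normexp. In HS it was 0.018 and 0.048. What caused them to change was not tested. HS minus TN at the unnamed probe A_72_P278669, run through the same alternatives after its values had been seen, ran from 0.27 to 0.35. No paired analysis was possible because replicate numbers were given in accession order and pair no animals. The lone ZSCAN29 probe and the 2 ADPRH probes near background limit what can be said of each.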
